A study of Arabidopsis thaliana with 3 samples.

Results

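Genes in which every binding site of the RNA-binding protein TSN1 carried the authors' label CDS (coding sequence) numbered 163 of the 1403 bound protein-coding genes (11.6%, Wilson 95% interval 10.0 to 13.4). They held 332 of the 5295 binding sites in protein-coding genes and of the 5673 sites in all. A gene was taken when none of its sites was labelled 3' UTR, 5' UTR (untranslated regions), intron or other, so these genes were chosen by the measured region labels of their sites, and labels and site numbers are given as a description with no test. Of the 163 genes, 149 with 269 sites were nuclear, 14 with 63 sites were plastid-encoded and 0 were mitochondrial. The other bound protein-coding genes comprised 651 with 3' UTR sites only (1331 sites), 455 with CDS and 3' UTR sites and no other label (2643 sites) and 134 with some other combination (989 sites).

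The sites were mapped by iCLIP2, in which protein is crosslinked to RNA in living tissue with ultraviolet light and complementary DNA breaks off at the crosslink. There was 1 group: seedlings of Arabidopsis thaliana, 14 days old, that expressed GFP:TSN1 from the TSN1 promoter in Col-0, so that the plants also carried their own TSN1. They were irradiated with 2000 mJ/cm2 at 254 nm, collected at ZT10 (10 h after lights on) with aerial tissue enriched, and each of the 3 biological replicates pooled plates. No control sample is part of the design used here, so crosslinks of TSN1 and background of the pull-down cannot be told apart. The deposited lists pool the replicates and hold 72935 single-nucleotide called peaks, binding sites with a width of 5 nt, and 1504 bound genes of any type. Coordinates are those of TAIR10. Read depth and the spread between replicates are therefore unknown, and the intervals below cover counting error over genes, sites or peaks alone. RNA abundance was not measured.

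TSN1 joins nuclease-like domains and a Tudor domain, and is known from stress granules and other RNA-protein assemblies. The coding sequence of a messenger RNA is travelled by ribosomes, whereas the 3' UTR lies beyond the stop codon and is where many regulatory proteins bind. In plastids most messenger RNAs come from a few operons and several coding sequences are carried on 1 transcript. How the labels were assigned in plastid genes is not given in the sources used, and 2 plastid genes just outside the rule had a single site with another label, RBCL a 3' UTR site and ATPF an intron site.

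Most genes bound only in CDS had few sites. A single site was found in 98 of 163 genes (60.1%, 52.5 to 67.3), against 362 of 651 genes with 3' UTR sites only (55.6%, 51.8 to 59.4). Among nuclear genes the share bound only in CDS went down as the site number went up. It was 92 of 468 genes with 1 site (19.7%, 16.3 to 23.5), 27 of 253 with 2 sites (10.7%, 7.44 to 15.1) and 14 of 147 with 3 sites (9.52%, 5.76 to 15.4). It was 7 of 109 with 4 sites (6.42%), 9 of 233 with 5 to 7 sites (3.86%, 2.05 to 7.18) and 0 of 173 with 8 or more sites, which allows a share of up to 2.17% by the Wilson interval. No nuclear gene of the group had more than 7 sites, and 30 of the 149 had 3 or more. Each additional site is a further chance of a second label, so comparisons between region patterns are also given at equal site number.

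A further 127 genes missed the rule by exactly 1 site. That site was labelled 3' UTR in 120 of them, 5' UTR in 4 and intron in 3, and 53 of the 127 had at least 2 CDS sites. ARA12, a subtilase gene, had 12 CDS sites with a highest score of 21.8 and a single 3' UTR site at 20.5. AT1G21670, described as a protein with a DPP6 amino-terminal domain, had 10 CDS sites up to 20.8 and a 3' UTR site at 16.1. RABE1b had 7 CDS sites up to 25.2, and its only 3' UTR site scored above them at 35.9.

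Sites of the nuclear genes lay in the 5' and middle parts of the gene. Along the gene span, introns included, counted from 0 at the start of the gene to 1 at its 3' end, their median relative position was 0.369 (95% interval of the median 0.343 to 0.408, 269 sites). The median site lay 654 nt from the 5' end, with quartiles at 396 and 989 nt. Of the 3 equal parts of the span, the most 5' part held 115 sites (42.8%), the middle part 120 (44.6%) and the most 3' part 34 (12.6%). Above 0.75 lay 15 sites (5.58%, 3.41 to 9), against 778 of 1326 sites of genes with 3' UTR sites only (58.7%, 56.0 to 61.3), whose median was 0.801. CDS sites of nuclear genes that also had 3' UTR sites had a median relative position of 0.292 (0.279 to 0.306, 1015 sites), below that of the genes bound only in CDS. In nt from the 5' end their median was 605 (564 to 644), against 654 (571 to 738), and these intervals overlapped. With 2 sites per gene the order was the other way and the intervals overlapped, at 0.327 (0.250 to 0.423) in genes bound only in CDS and 0.353 (0.278 to 0.394) for the CDS sites of genes with both labels. With 3 or more sites the relative positions were 0.376 (0.324 to 0.437, 123 sites) and 0.289 (0.277 to 0.303, 944 sites), and these intervals were apart. Position follows in part from the label itself, so these values describe the groups. The gene spans were of similar length, with a median of 1805 nt in the nuclear genes bound only in CDS, 1999 nt in genes with 3' UTR sites only and 1923 nt in nuclear genes with both. A single RefSeq transcript was annotated for 103 of the 149 genes (69.1%, 61.3 to 76.0) and for 368 of the 651 genes with 3' UTR sites only (56.5%, 52.7 to 60.3).

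**Figure D1:**
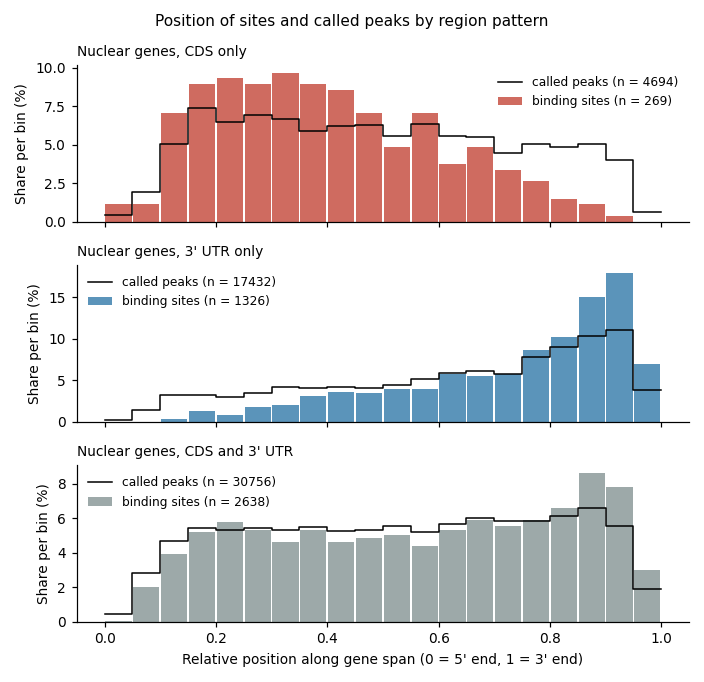
Relative position along the gene span (x axis, 0 at the 5' end, 1 at the 3' end) of binding sites (bars) and of called peaks of the same genes (black line), as percent per bin of 0.05, for nuclear genes of 3 region patterns. Sites of genes bound only in CDS (top) thin out towards the 3' end, with 5.58% above 0.75, while 19.5% of their called peaks lie there.

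Scores are the authors' value per site, equal to the highest called-peak score within the site, with no stated unit. They were used to describe and rank sites within these lists. The median score over all 332 sites was 10.9 (9.81 to 11.7), and nuclear and plastid sites differed. Nuclear sites had a median of 9.42 (8.95 to 10.9, 269 sites) and plastid sites one of 17.8 (15.5 to 23.0, 63 sites), and these intervals do not overlap. Sites of the same gene are not independent, so the intervals are too narrow. Of the 63 plastid sites PSBC held 15, PSAB 14, PSBA 9 and PSAA 8, and PSBA gave 833 of the plastid summed score of 1808. Plastid genes supplied 37.8% of the summed score of the 332 sites. The nuclear median was close to that of genes with 3' UTR sites only, 9.71 (9.37 to 9.99, 1331 sites), and both were below nuclear genes with CDS and 3' UTR sites, 13.2 (12.9 to 13.6). CDS sites within those latter genes had a median of 12 (11.6 to 12.5).

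The same comparison was made at equal site number. In nuclear genes with 1 site the median score was 7.86 (6.63 to 9.85, 92 sites) for CDS only and 8.39 (7.80 to 9.22, 362 sites) for 3' UTR only. In nuclear genes with 2 sites it was 8.78 for CDS only, 8.80 for 3' UTR only and 9.59 for genes with 1 site of each label, whose CDS sites had 7.92 (6.82 to 10.1). With 3 or more sites it was 11.7 (9.81 to 12.9) for CDS only, 11.0 (10.3 to 11.5) for 3' UTR only and 13.5 (13.2 to 14.0) for both labels. The intervals of CDS only and 3' UTR only overlapped at each site number. No nuclear site of a gene bound only in CDS scored over 50, and 8 of 269 scored over 30. Within the nuclear genes the intervals for different positions overlapped. The median score was 9.31 (7.62 to 11.1) in the most 5' part of the span, 10.3 (8.95 to 12.3) in the middle and 9.15 (7.03 to 12.5) in the most 3' part.

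**Figure D2:**
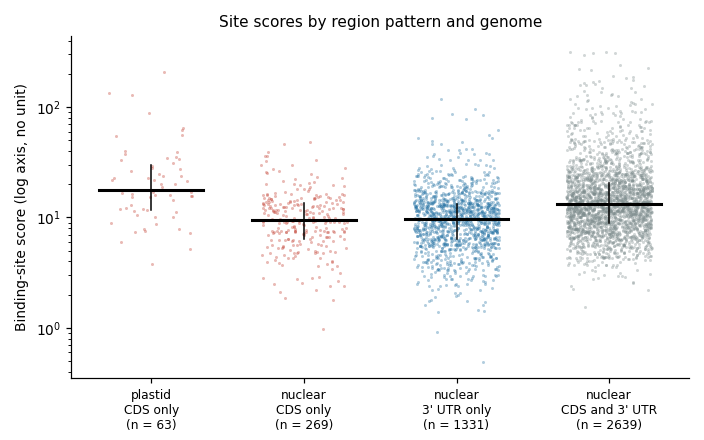
Score of each binding site (log axis, no unit) in plastid and nuclear genes bound only in CDS, nuclear genes with 3' UTR sites only and nuclear genes with both labels. Bars mark medians, vertical lines the quartiles. Plastid sites (median 17.8) stand above the nuclear sites of the same label pattern (median 9.42).

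Plastid photosystem genes had the most sites of the group. The 4 genes with 8 or more sites all encode core subunits of the photosystems, and the plastid sites lay along the whole coding span, with a median relative position of 0.483 (0.384 to 0.612). PSBA, for the D1 protein that binds the cofactors of photosystem II and is replaced continually in the light, had 9 sites on the minus strand between positions 585 and 1435 of the plastid genome. From the 5' end its sites scored 88.5, 207, 54.7, 64.8, 61.6, 127, 40.1, 55.4 and 133. The 207 of the second site, 141 nt from the 5' end, was the highest score of any gene bound only in CDS, and no PSBA site scored below 40.1. PSBC, for the CP43 inner antenna of photosystem II, had 15 sites between 33777 and 34807 on the plus strand, with scores from 7.25 to 39.2. Its sites left the 3' part of the gene free, since the last lay at 0.764 of the span. PSBB, for the CP47 antenna, had 4 sites that scored 7.88, 11.6, 23.0 and 17.0 from 5' to 3'.

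The photosystem I core genes PSAA and PSAB, which lie next to each other on the minus strand with RPS14 downstream, had 8, 14 and 3 sites. PSAB sites ran from 0.0272 to 0.985 of the span, between 37406 and 39521, with scores from 7.45 to 33.4. PSAA sites lay between 39850 and 41575, with scores from 5.95 to 26.1. RPS14, for a protein of the small plastid ribosomal subunit, had scores of 21.3, 12 and 7.82 from 5' to 3', with 93 nt between the first and the last. The cytochrome b6f genes PETB and PETD had 2 sites (15.3 and 35.5) and 1 site (16.0), and ATPA, for the alpha subunit of the plastid ATP synthase, had 2 sites that scored 3.80 and 7.48. The small photosystem genes PSBI, PSBF, PSBT, PSBN and PSAI had 1 site each, with scores of 18.8, 15.5, 16.3, 17.0 and 5.15. PSBN is read from the strand opposite to PSBT, and its site was listed on the minus strand at 74270 to 74274, that of PSBT on the plus strand at 74142 to 74146.

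**Figure D3:**
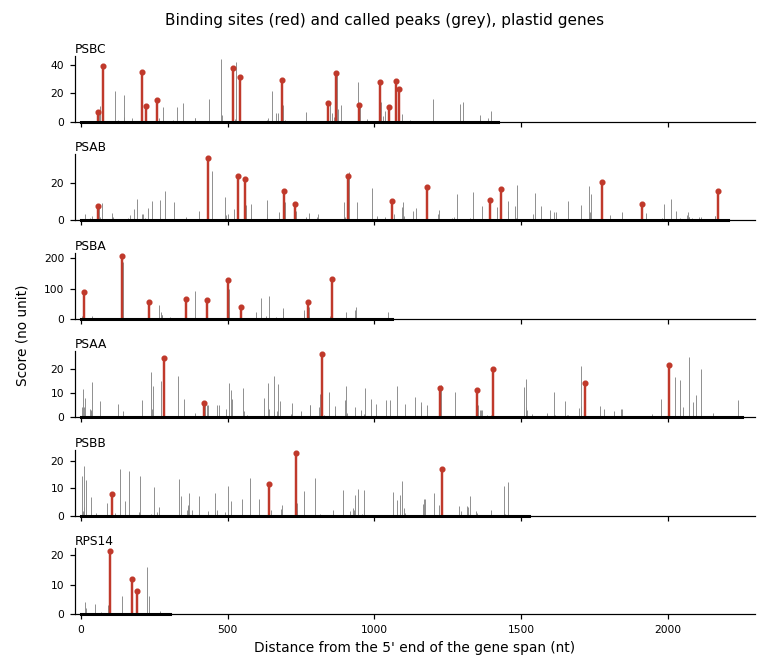
Binding sites (red, with dots) and called peaks outside sites (grey) along the 6 plastid genes with at least 3 sites, by distance from the 5' end of the gene span in nt. Heights are scores with no unit, and each gene has its own vertical scale. PSBA reaches 207, while the other genes stay below 45.

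Among nuclear genes, GAE1, KCS1 and FER had the most sites, 7 each. GAE1, for the UDP-glucuronate 4-epimerase that makes the galacturonic acid precursor of pectin, had sites between 14882012 and 14883105 of chromosome 4 with scores of 21.2, 5.60, 14.2, 4.74, 27.2, 25.5 and 21.5 from 5' to 3'. Neighbouring low and high scores occurred in 2 close pairs, 5.60 beside 21.2 and 4.74 beside 27.2. KCS1, a 3-ketoacyl-CoA synthase that elongates very-long-chain fatty acids, had scores from 5.67 to 20.1 between 57423 and 58723 of chromosome 1. FER, the FERONIA receptor kinase of the plasma membrane, had scores from 6.26 to 11.3 between 19118393 and 19120273 of chromosome 3, so that none of its sites reached the highest site of GAE1 or KCS1.

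The highest nuclear scores came from other genes. AT2G33850, described as an E6-like protein, had scores of 48.5, 14.3, 20.4 and 15.3 from 5' to 3' on chromosome 2 (14321306 to 14321833), and its first site was the highest nuclear site of the group. AMT1;1, an ammonium transporter of the plasma membrane, had scores of 46.2, 16.1, 18.0, 7.54 and 7.03 on chromosome 4 (7858602 to 7859620), again highest at the most 5' site. AT2G10940, of the bifunctional inhibitor and lipid-transfer type, had scores of 33.3, 27.8, 19.5 and 39.5 on chromosome 2 (4311232 to 4311594), so that its summed score of 120.2 was level with the 119.9 of GAE1 from fewer sites. CYP706A5, a cytochrome P450, had 6 sites with scores from 7.60 to 16.9, all in the 5' part of the span up to 0.369. AT3G24480, a leucine-rich repeat protein, had 6 sites with scores from 6.19 to 16.1, of which 3 lay close together at 528, 534 and 545 nt from the 5' end of the gene on chromosome 3.

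**Figure D4:**
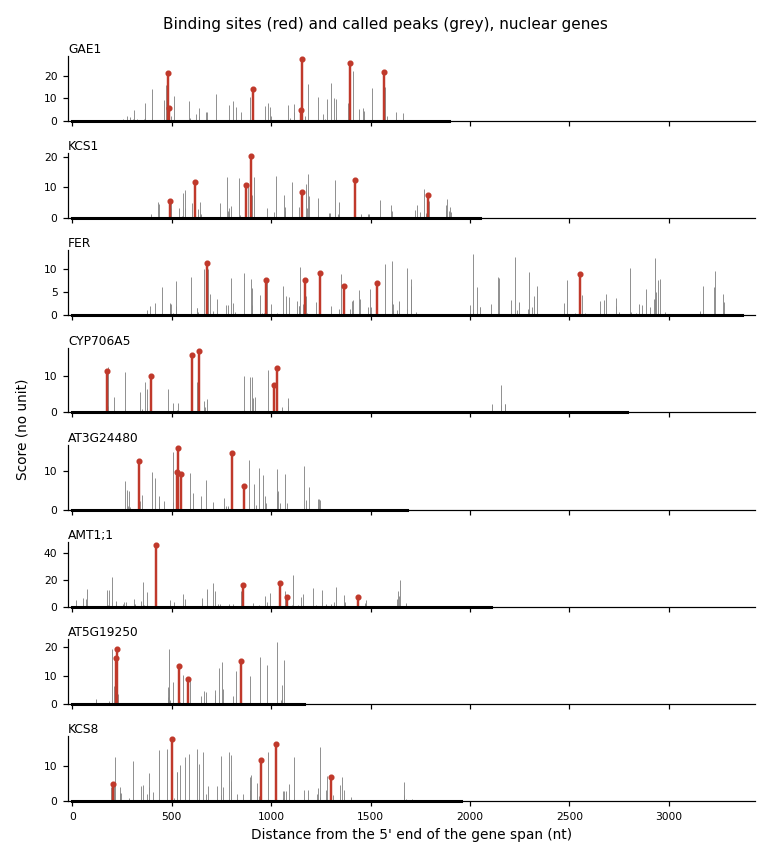
Binding sites (red, with dots) and called peaks outside sites (grey) along the 8 nuclear genes with the most sites, by distance from the 5' end of the gene span in nt. Heights are scores with no unit, and each gene has its own vertical scale. Called peaks run past the last site, as in FER, where 31 of 139 lay 3' of it.

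Functions were counted with 16 lists of name patterns, applied alike to all bound protein-coding genes and not tested. They caught 70 of the 163 genes, and 12 of the 16 lists had a member. Organelle-encoded genes had the highest share bound only in CDS, 14 of 20 (70.0%, 48.1 to 85.5). The RefSeq spans of 13 of these 14 genes had a length that is a multiple of 3, as coding sequence without UTRs has. That length alone does not show that a span lacks an intron. The spans also need not match the annotation behind the labels, since the 3' UTR site of RBCL lay outside its RefSeq span. Which labels were open to plastid sites is not known here and was not tested. Receptor and protein kinases followed with 7 of 19 (36.8%, 19.1 to 59.0), cytochromes P450 with 5 of 17 (29.4%, 13.3 to 53.1), light harvesting and photosystems with 12 of 48 (25%, 14.9 to 38.8) and lipid metabolism with 9 of 42 (21.4%, 11.7 to 35.9). These 5 intervals lie above the 11.6% of all bound genes, that of lipid metabolism only just. As the lists rest on name patterns, a gene wrongly caught could remove so narrow a margin. The 5 intervals overlap each other except that the organelle interval lies above those of photosystems and lipid metabolism. In the photosystem list 9 of the 12 were plastid genes, so its share rests mostly on them. Its nuclear members were PSBTN, PSAG and AT1G51400, and a share among nuclear photosystem genes alone is not given here. Ribosomal proteins had 11 of 104 (10.6%, 6.01 to 18.0), membrane transporters and pumps 7 of 72 (9.72%), proteases and peptidases 4 of 35 (11.4%) and cell wall enzymes 7 of 55 (12.7%), all near the share of all bound genes. Heat shock proteins and chaperones had 2 of 21, translation factors 1 of 13 and transcription factors 1 of 16. Carbon fixation and photorespiration had 0 of 17 (up to 18.4% by the Wilson interval), RNA-binding proteins 0 of 11, the cytoskeleton 0 of 8 and the glucosinolate list 0 of 1. Names and words in a description decide these lists, so the counts can err either way. ERD1, a Clp-type ATPase that is no transporter, entered the transporter list, while the auxin efflux carriers PIN3 and PIN4 missed it. The transcription factor list caught AT1G06760 alone in the group. It is described as a winged-helix DNA-binding protein, which does not by itself make it a transcription factor. PSAI missed the photosystem list through a misspelt description.

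Genes for secreted peptides and for receptor kinases were among those bound only in CDS. RALF peptides are secreted ligands, several of which are perceived by FER, and all 3 bound RALF genes were bound only in CDS (Wilson interval 43.9 to 100%), each at a single site. Of all bound genes 11.6% were bound only in CDS, and of nuclear genes with 1 site 19.7%, and the family was chosen after its values were seen. RALF23 scored 18.2 at 5645091 to 5645095 of chromosome 3, RALFL33 12.2 and RALFL34 11.4, at 0.255, 0.270 and 0.455 of the span. The phytosulfokine precursor genes PSK4 and PSK5, which encode sulfated peptide hormones, also had 1 site each, at 11.1 and 6.25. They were 2 of 2 bound genes of that family (Wilson interval 34.2 to 100%), which was also chosen after its values were seen. RGF9, for a peptide of the root meristem growth factor family, had 3 sites that scored 11.8, 14.9 and 18.8, and bound genes of that family were not counted. Just outside the rule, GASA1 had a 3' UTR site at 91.6, above its CDS sites of up to 43.2. The plant defensin gene PDF1.2c and the thionin gene THI2.2 also had a 3' UTR site, at 10.9 and 11.5. Among the receptor kinases, BAM1, a CLAVATA1-related receptor kinase, had 3 sites that scored 3.73, 9.12 and 14.4, all within the 5' part of the span up to 0.262. BRI1, the brassinosteroid receptor, had 1 site at 9.23, and the cysteine-rich receptor kinases CRK11 and CRK41 had 2 and 1. By a wider pattern chosen after the values were seen, 9 of 25 bound genes with leucine-rich repeat or receptor-like descriptions were bound only in CDS (36.0%, 20.2 to 55.5), beside 11.6% of all bound genes.

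Lipid genes of the group were led by the 3-ketoacyl-CoA synthases, a family chosen after its values were seen, of which 4 of 9 bound genes were bound only in CDS (18.9 to 73.3%, beside 11.6% of all bound genes). KCS1 had 7 sites, KCS8 5 (scores 4.75 to 17.6), KCS12 3 (7.26 to 11.2) and KCS3 2 (6.42 and 15.0). The bound synthase genes outside the group had 4 (KCS5), 14 (KCS6), 9 (KCS9), 11 (KCS10) and 7 (KCS20) sites, so site numbers of members and the others overlapped at 4 to 7. FAD2, the desaturase of the endoplasmic reticulum that makes linoleic acid, had 3 sites, and they lay in the 3' part of its span from 0.712 to 0.866. SMT2, a sterol methyltransferase gene, had 4 sites that scored from 4.05 to 14.6.

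Genes of the cell surface were spread over several families, counted after their values were seen, beside the 11.6% of all bound genes. Bound only in CDS were 3 of 7 bound arabinogalactan protein genes of AGP type (interval 15.8 to 75%), namely AGP17, AGP18 and AGP21 with 1 site each and scores from 5.06 to 7.41. So were 2 of 6 fasciclin-like arabinogalactan protein genes (9.68 to 70.0%), FLA7 and FLA18 with scores of 4.86 and 5.02. Of the EXORDIUM-like genes 3 of 6 were (18.8 to 81.2%), EXO, PHI-1 and EXL5. EXO had scores of 4.82, 23.4 and 9.14 from 5' to 3', PHI-1 1 site at 16.1 and EXL5 1 site at 2.42. AT5G62350, of the family of invertase and pectin methylesterase inhibitors, had 4 sites with scores from 12.8 to 22.2, and the pectin lyase-like gene AT5G63180 had 4 from 7.27 to 20.0. The auxin efflux carriers PIN3 and PIN4 had 5 and 3 sites, and they were 2 of 5 bound genes so described (11.8 to 76.9%). AT5G19250, a GPI-anchored glycoprotein gene, had 5 sites with a highest score of 19.5. Among lipid-transfer-type genes 4 of 16 were bound only in CDS (10.2 to 49.5%), with AT2G10940 first. The intervals of the fasciclin-like and lipid-transfer-type genes hold the share of all bound genes, and all of these rest on few genes.

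Other lists were represented by few sites per gene. AT2G43030, a ribosomal protein L3 family gene, had scores of 10.3 and 13.4, and all nuclear ribosomal protein genes of the group had 1 or 2 sites. AT2G25610, a subunit c of a V-type or F-type ATPase, had 3 sites that scored 5.49, 13.4 and 7.88 from 5' to 3'. Of the bound genes of V-type ATPase subunits 2 of 10 were bound only in CDS (5.67 to 51.0%), an interval that holds the share of all bound genes. AT5G19120, an aspartyl protease family gene, had 4 sites with a highest score of 22.8. AT2G22425, for a subunit of the signal peptidase that cleaves signal peptides at the endoplasmic reticulum, had 3 sites whose centres spread over 18 nt between 9515258 and 9515280 of chromosome 2, scoring 18.2, 13.4 and 4.11. CYP71A22 had scores of 7.44 and 9.33. AT5G54760, of the SUI1 family of translation initiation factors, had 1 site at 2.38, and AT1G06760, described as a winged-helix DNA-binding protein, 1 at 5.76. HSP81-3 and HSP81-2, cytosolic HSP90 chaperones, had scores of 3.91 and 6.10, and of 4.60, all at 0.788 or further along the span. The HSP81 genes are near-identical copies, so which of them was crosslinked is uncertain.

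Neighbouring sites of a gene lay close together. Over 169 gaps the median distance was 133 nt (111 to 165), 156 nt (113 to 195) in nuclear and 120 nt (73 to 137) in plastid genes. Genes with 3' UTR sites only had a median of 141 nt (119 to 168) and nuclear genes with both labels 164 nt (157 to 176). In nuclear genes with exactly 2 sites the median gap was 115 nt (64 to 219) when both were CDS, 99 nt (51 to 166) when both were 3' UTR and 603 nt (472 to 718) when there was 1 of each. Gaps over 500 nt made up 11 of 120 (9.17%, 5.20 to 15.7) in nuclear genes bound only in CDS and 119 of 680 (17.5%, 14.8 to 20.5) with 3' UTR sites only, with overlapping intervals. The intervals also overlapped at 2 sites per gene (14.8%, 5.92 to 32.5, and 20.8%, 15.0 to 28.2) and at 3 or more (7.53%, 3.69 to 14.7, and 16.6%, 13.7 to 20.0). Gaps of up to 50 nt made up 24.2% (17.4 to 32.6) and 31.9% (28.5 to 35.5), again with overlapping intervals. THIC, for the phosphomethylpyrimidine synthase of thiamine synthesis, had its 2 sites 20 nt apart, whereas the 7 sites of FER spread over 1876 nt.

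Called peaks carry no region label and show crosslink positions outside the sites as well. Sites themselves contain called peaks, so the lists are not independent. With all site numbers pooled, a median of 5 called peaks lay within 25 nt of a site centre in genes bound only in CDS (4 to 5). It was also 5 in genes with 3' UTR sites only (5 to 5) and with both labels (5 to 5). In nuclear genes with 1 site it was 4 (4 to 5) for CDS only and 5 (5 to 5) for 3' UTR only. At 2 sites it was 4 (4 to 5) and 5 (5 to 6), and at 3 or more 5 (5 to 5) and 6 (5 to 6). The median of CDS only was thus lower at each site number, with intervals that met or overlapped. The mean number in the flanks differed somewhat: 3 to 25 nt upstream of nuclear sites lay 1.32 called peaks per site for CDS only, 1.67 for 3' UTR only and 1.74 for both. From 26 to 100 nt upstream the numbers were 2.90, 2.43 and 3.06, and downstream 2.83, 2.13 and 2.85. These means were not split by site number.

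Over the whole gene, nuclear genes bound only in CDS had a median of 29 called peaks (22 to 32), above the 19 (17 to 22) of genes with 3' UTR sites only and below the 60 (57 to 64) of genes with both. At 1 site per gene the medians were 17.5 (15 to 23) and 11 (10 to 12), at 2 sites 32 (28 to 37) and 24.5 (21 to 27), and at 3 or more sites 55 (48 to 70) and 49 (44 to 57). The intervals were apart at 1 and 2 sites and overlapped at 3 or more. Genes with both labels had 31 (25 to 35) at 2 sites, overlapping that of CDS only. Per kb of gene span the nuclear medians were 15.0, 9.89 and 33.2, and plastid genes of the group had 62.8. These spans are not alike. Nuclear spans include UTRs and introns, while 13 of the 14 plastid spans had a length that is a multiple of 3, as coding sequence without UTRs has. That length alone does not show that a plastid span lacks an intron. Inside sites lay 551 of the 4694 called peaks of the nuclear genes (11.7%, 10.8 to 12.7) and 143 of the 720 of the plastid genes (19.9%, 17.1 to 22.9). In genes with 3' UTR sites only the share was 15.9% (15.4 to 16.5). Neighbouring peaks are not independent, so these intervals are too narrow.

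The called peaks did not stop where the sites stopped. Of the called peaks of nuclear genes bound only in CDS, 2053 of 4694 lay 3' of the last site (43.7%, 42.3 to 45.2), and 136 of 146 genes with a counted peak had at least 1 there. Plastid genes, most of whose spans may lack a 3' UTR, had 102 of 720 (14.2%, 11.8 to 16.9), and genes with 3' UTR sites only 16.6%. At 1 site per gene the shares 3' of the site were 56.3% (54.1 to 58.4) for CDS only and 29.5% (28.3 to 30.7) for 3' UTR only, and the shares 5' of it 34.3% and 56.6%. At 2 sites per gene the shares 3' of the last site were 47.2% and 16.3%, and at 3 or more 27.5% and 8.18%. Above 0.75 of the span lay 19.5% (18.4 to 20.7) of the peaks of nuclear genes bound only in CDS, against 41.8% of those of genes with 3' UTR sites only. By gene, 91 of 146 (62.3%, 54.2 to 69.8) had a called peak above 0.75, against 573 of 635 (90.2%, 87.7 to 92.3). A gene bound only in CDS by the site list could thus still have called peaks near its 3' end. The genes were chosen for having no 3' UTR site, which places their last site further 5'. These shares, and their contrasts with genes that had 3' UTR sites only, therefore follow in part from the choice. Single genes ranged widely. AIR12, an auxin-induced gene with 1 site, had 30 of its 40 called peaks 3' of the site, and DHAR1, for a dehydroascorbate reductase, 28 of 32. AT3G57400, a gene for a transmembrane protein, had 37 of 44 before its site.

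In 83 of 146 nuclear genes bound only in CDS (56.8%, 48.7 to 64.6) a called peak outside the sites scored above the gene's highest site. For genes with 3' UTR sites only this was 294 of 635 (46.3%, 42.5 to 50.2), and at 1 site per gene 57 of 91 (62.6%, 52.4 to 71.9) and 184 of 350 (52.6%, 47.3 to 57.7), with overlapping intervals. At 2 sites it was 17 of 25 (68.0%, 48.4 to 82.8) and 63 of 141 (44.7%, 36.7 to 52.9), and at 3 or more 9 of 30 (30%, 16.7 to 47.9) and 47 of 144 (32.6%, 25.5 to 40.7), so the order changed with the site number and the intervals overlapped throughout. For genes with both labels it was 149 of 448 (33.3%, 29.1 to 37.7). The strongest such peak lay 3' of the last site in 45 of the 83 genes, 5' of the first in 26 and between sites in 12. It lay over 100 nt from any site of the gene in 48, within 10 nt in 10 and above 0.75 of the span in 25. Its score exceeded that of the highest site by a median ratio of 1.43, up to 4.92 in TPP, where the only site scored 0.971. More peaks outside sites give more chances of a stronger one, and the shares above were not matched for peak number. At 1 site per gene the median number of called peaks was 17.5 for CDS only and 11 for 3' UTR only, and at 2 sites 32 and 24.5. At 3 or more it was 55 and 49, with overlapping intervals.

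Named cases show both kinds. In PSBTN, for a nuclear-encoded small subunit of photosystem II, the 2 sites scored 36.2 and 35.8 and a called peak 155 nt away scored 62.7. In AT5G19120 a called peak at 0.899 of the span scored 50.2, above its highest site at 22.8. In AT2G10940 a called peak of 51.1 stood above the highest site at 39.5. In DHAR1 a called peak of 13.3 lay 804 nt from the nearest site, at 0.940 of the span, above sites at 4.60 and 2.92. In EARLI1, a lipid-transfer-type gene with sites between 7.39 and 9.23, a called peak of 34.4 lay 74 nt from the nearest site. In PSBA, AMT1;1 and AT2G33850 the highest site stood above all called peaks outside sites, at 207 against 90.8, 46.2 against 23.7 and 48.5 against 17.7.

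The site list was not continuous. Site numbers in the authors' identifiers ran to 7020 and followed position along each strand, and 1347 numbers were absent from the list. A number was skipped at the place of the strongest outside peak in 33 of the 83 nuclear genes bound only in CDS and in 129 of the 294 with 3' UTR sites only. The share of such skips at other places is not given here, and a skipped number does not show that the absent site lay at that peak. Between the sites of single genes bound only in CDS 26 numbers were absent. The region labels of the absent numbers are not known here, so which genes would have kept CDS labels alone with them was not tested.

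**Figure D5:**
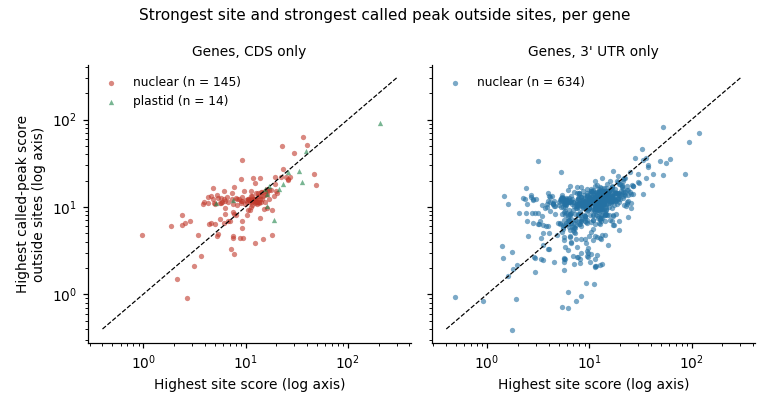
Highest called-peak score outside sites (y, log axis, no unit) against highest site score (x, log axis, no unit), 1 point per gene with a called peak outside its sites, for genes bound only in CDS (left) and genes with 3' UTR sites only (right). Points above the dashed line of equality have a stronger called peak outside their sites, as 83 nuclear genes bound only in CDS do.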

How the data were processed

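TSN1 crosslinks were mapped by iCLIP2 in 3 replicates of 1 group. Tools listed in the submitters' processing notes, without roles, are STAR 2.7.3a, bedtools 2.27.1, UMI-tools 1.0, FastQC 0.11.5 and SAMtools, with the genome TAIR10. Per the labels' protocols, libraries carried barcodes and unique molecular identifiers, which separate molecules from copies made in 18 PCR cycles, and were read as 50 nt single ends. Neither the peak caller nor the labelling rule is given in the sources used here. The authors' score of a called peak has no unit. The deposited score of a site is the highest peak score inside it, per the file headers. The deposited target table gives a count of sites per gene. All lists pool the replicates, so no test over samples was possible and none was made over genes or sites.

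Genes were classed by the labels of all their sites. Nuclear genes were matched by locus tag and plastid genes by symbol to RefSeq gene spans (TAIR10.1), and all 163 genes had a span that held their sites. Of the 65910 strand-matched called peaks in spans of bound genes, 64509 lay in exactly 1 protein-coding span and were used. Thereby 3 nuclear genes of the group lost all their peaks, and some others a part. Shares have Wilson 95% intervals and medians binomial 95% intervals. Without exon models, position includes introns, and site sequences are not analysed here.

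Members and lists were chosen with earlier results of these data known, and the 12 gene families after their values were seen. The cytoskeleton pattern was narrowed after it was seen to catch the word interacting. Named genes were the 10 with the most sites, the 10 with the highest summed score, the genes of the 5 highest sites, the 2 leading members of each list, plastid genes with at least 3 sites and the 3 leading genes just outside the rule. All other genes were named after their values were seen. The classing, position, spacing and peak steps were tested on simulated data. Python 3.11.15 with pandas 2.3.3, NumPy 2.4.6, SciPy 1.17.1 and Matplotlib 3.10.9 was used. Alternatives covered genomes, score thresholds, site number, weighting, leading genes, windows and margins.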

Additional observations from a re-analysis of the deposited data

How the results depend on the processing

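No paired analysis was possible because the lists hold 1 group with its replicates pooled, and for the same reason leaving out a replicate could not be run. Of 44 alternatives over 8 results, 19 moved the value by less than its 95% interval and 25 by more. Position was stable under all 5 alternatives (0.367 to 0.400), and the share of genes with 1 site under both (61.7% and 65.3%). The share of genes bound only in CDS was 7.00% among genes with at least 2 sites. The median score was 9.42 in nuclear and 17.8 in plastid genes, 16.3 for sites above the median of all sites, 9.35 with each gene counted once, 11.8 with at least 2 sites, 8.56 with 1 site and 9.56 when the 10 genes richest in sites were left out. The median gap was 170 nt for sites above the median score. The median number of called peaks was 3 within 10 nt, 7 within 50 nt and 3 for peaks above the median score. The share of called peaks inside sites, 12.8% over all 163 genes, was 11.7% in nuclear genes, 14.8% with at least 2 sites, 9.73% with 1 site, 11.5% without the 10 genes, 22.2% for peaks above the median score and 20.2% with peaks within 10 nt of a site counted. The share 3' of the last site, 39.8%, was 43.7% in nuclear and 14.2% in plastid genes, 29.7% with at least 2 sites, 55.3% with 1 site, 45.7% without the 10 genes, 33.6% for peaks above the median score and 33.4% beyond a margin of 50 nt. The plastid settings of the score and of the share 3' of the last site were chosen after seeing the data. Depth and background of the pull-down are unknown, so a gene with 1 site may have further sites below the authors' threshold, and this was not tested.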
